A study of Homo sapiens with 3 samples.

Results

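7SK, the small nuclear RNA encoded by RN7SK, was examined in 3 RNA sequencing libraries made from MDA-MB-231 cells in a search for RNAs bound by focal adhesion kinase (FAK). Members were the listed transcripts that overlap RN7SK on chromosome 6 (52995620 to 52995951 in GRCh38.p14), and 1 of the 334 deposited lncRNA transcripts did so. MDA-MB-231 is a long-established cell line from a human triple negative breast tumour, labelled p53-mutant, and the cells of all 3 libraries expressed Flag-tagged FAK from transfected plasmids. The Flag-FAK library held RNA retrieved with an anti-FLAG antibody, the IgG library RNA retrieved with normal mouse IgG, and the Input library 10% of the starting RNA. With 1 library per condition there is no SD and no p-value, and every comparison describes these libraries and not the conditions. No library from cells without the tag was among them, and none of the transcripts overlapped the 9 genes chosen as markers of the cell line, so its identity was not checked here.

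7SK is an abundant nuclear RNA made by RNA polymerase III. It is the scaffold of a ribonucleoprotein in which MEPCE caps its 5′ end and LARP7 holds its 3′ end, and through HEXIM1 or HEXIM2 it keeps the kinase P-TEFb (CDK9 with a cyclin T) inactive. P-TEFb releases paused RNA polymerase II, so 7SK is known as a brake on transcription elongation. FAK is a tyrosine kinase of focal adhesions, where cells attach to the extracellular matrix.

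The 7SK transcript carried the database name lnc-FBXO9-1:1 and ran on the plus strand of chromosome 6 from 52941639 to 52995944. Its span of 54306 bases also crosses the RefSeq genes GSTA4, a glutathione transferase, and GSTA9P, a pseudogene of that family. The span, introns included, took in 325 of the 332 bases of RN7SK and ended 7 bases before the end of the gene. RN7SK thus made up 0.598% of the span. The files give no exons and no read positions, and therefore do not show which reads lay on RN7SK itself. The assembled length can be bounded from the FPKM that 1 read was worth in Input, which falls as a transcript gets longer. Set against the other transcripts with at least 50 Input reads (37 transcripts), none of which can be longer than its own span, the lowest bound on the length of the 7SK transcript was 312 bases, and the next 4 transcripts gave bounds of 318 to 342 bases. By these bounds, which take FPKM per read as inverse to length, the counted sequence was no longer than about the length of RN7SK and far shorter than the span. RefSeq lists 293 pseudogenes of 7SK, and none of the 334 transcripts overlapped any of them, so reads that fit such copies had no other listed transcript to be assigned to. Coding potential was low by the deposited scores, with a CPC score of -1.35, a CNCI score of -0.0504 and a CPAT coding probability of 0.0754.

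7SK was counted with 36842 reads in Input, against 5108 in IgG and only 2913 in Flag-FAK. The corresponding levels were 12493 FPKM for Input, 1889 FPKM for IgG and 1050 FPKM for Flag-FAK. Both scales put Input highest and Flag-FAK lowest. The order was different as a share of the non-ribosomal reads. These are the reads on listed transcripts other than 3 of the ribosomal DNA cluster on chromosome 21 (8209614 to 8446613). 7SK took 72.8% of these reads in Input (exact 95% binomial interval 72.4 to 73.2%, 50624 reads). The share was 58.2% in IgG (57.2 to 59.2%, 8777 reads) and 68.3% in Flag-FAK (66.9 to 69.7%, 4264 reads). No 2 of these intervals overlapped, and IgG was lowest. Intervals cover counting error only, since PCR copies without molecular identifiers are not independent molecules.

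**Figure D1:**
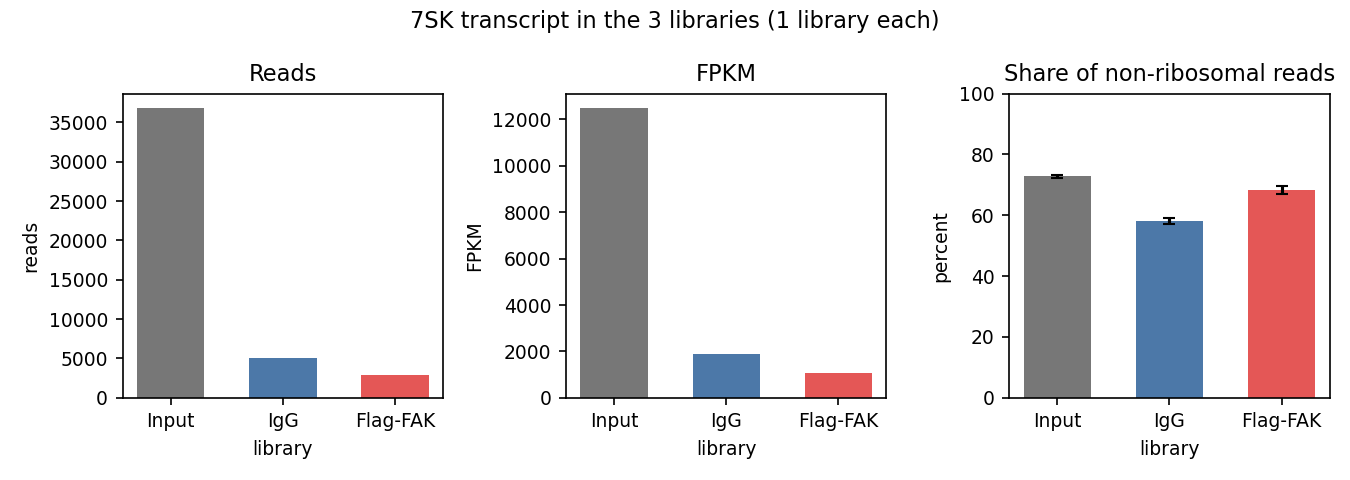
Reads, FPKM and percent of the non-ribosomal reads of the 7SK transcript in Input, IgG and Flag-FAK, 1 library each; error bars on the shares are exact 95% binomial intervals. Reads and FPKM fell from Input over IgG to Flag-FAK, whereas the share was lowest in IgG (58.2%).

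Ribosomal DNA held most of the reads on the listed transcripts: 97.5% of 2056854 in Input, 92.0% of 109658 in IgG and 91.3% of 48763 in Flag-FAK. Counted over all reads on these transcripts, 7SK was only 1.79% of Input (1.77 to 1.81%), 4.66% of IgG (4.53 to 4.78%) and 5.97% of Flag-FAK (5.77 to 6.19%). As a share of all listed reads, Flag-FAK was therefore highest and Input lowest. As a share of the FPKM summed over the same transcripts, 7SK took 7.98% of Input, 7.41% of IgG and 9.43% of Flag-FAK, so Flag-FAK was again highest but IgG lay lowest. For each 7SK read, Input held 54.5 reads of ribosomal DNA, IgG held 19.7 and Flag-FAK 15.3. These totals cover the listed transcripts and not the whole libraries, whose absolute depth is not given. The FPKM that 1 read of 7SK was worth was 1.09 times as high in IgG as in Input. For Flag-FAK against Input it was 1.06 times as high. If FPKM per read is inverse to the sequencing total, those totals thus differed far less between the libraries than the listed reads did.

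By FPKM, 7SK ranked 3 of 334 transcripts in Input and 2 in both precipitates, and the ranks by reads were identical. Only ribosomal DNA transcripts stood above it, so it was first of the 331 non-ribosomal transcripts in each library. The transcript next to it in Input was NONHSAT088493.2 on the plus strand of chromosome 3 (15680273 to 15738746), which overlaps RN7SL4P, a pseudogene of the signal recognition particle RNA, and the genes BTD and ANKRD28. It had 2211 FPKM, and 7SK was 5.65-fold higher. In IgG and in Flag-FAK the next was a transcript without a database name on chromosome 20 (minus strand, 29299450 to 29299804), inside LOC110467538, a pseudogene of the small-subunit ribosomal RNA. It had 529 FPKM in IgG, where 7SK was 3.57-fold higher, and 164 FPKM in Flag-FAK, where 7SK was 6.41-fold higher. The distance between 7SK and the ordinary lncRNA transcript was far larger. Among other non-ribosomal transcripts with at least 1 read, the median level was 2.96 FPKM over 288 transcripts of Input, 1.98 FPKM over 147 of IgG and 1.07 FPKM over 64 of Flag-FAK.

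**Figure D2:**
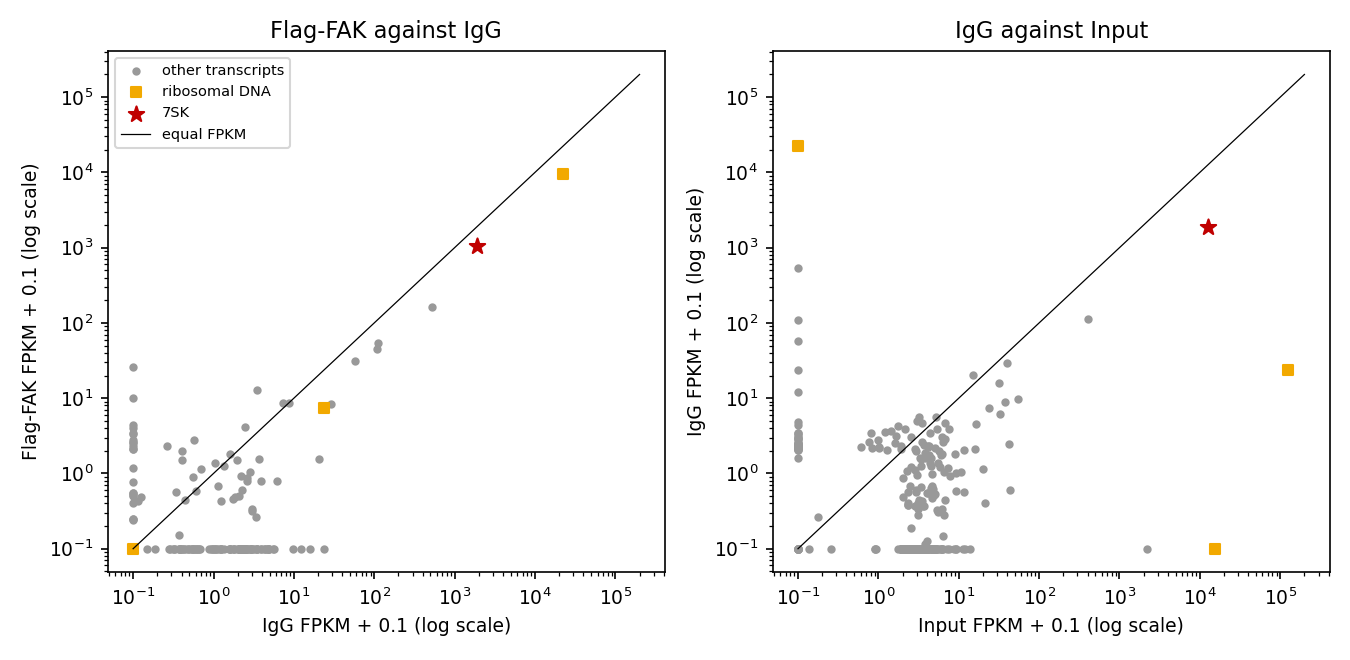
FPKM + 0.1 of the 334 transcripts on log axes, Flag-FAK against IgG on the left and IgG against Input on the right; the star is 7SK, squares are ribosomal DNA, and the line marks equal FPKM. 7SK lies below the line in both panels, above every other non-ribosomal transcript, at 1889 FPKM in IgG and 1050 in Flag-FAK.

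The comparison of Flag-FAK with IgG asks which RNAs the tagged kinase brings down beyond the background of the antibody and beads. In FPKM 7SK was lower in Flag-FAK, with a Flag-FAK to IgG ratio of 0.556 and an exact counting interval of 0.531 to 0.582. It lay short of the 2-fold limit used here, which 19 of 135 transcripts with at least 0.5 FPKM in either precipitate passed upwards (14.1%) and 104 passed downwards (77%). With 0.1 FPKM added to both libraries, 29 of these 135 transcripts had a higher ratio than 7SK, and the median over the 135 was 0.0807. That median is set by transcripts without any Flag-FAK reads. Among the 26 transcripts to which each precipitate gave at least 5 reads, 7SK ranked 11 from the highest, and the median ratio was 0.456. Where reads were present on both sides, 7SK thus lay near the middle of the listed transcripts.

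The direction of this ratio depended on what the libraries were scaled to. With the FPKM of all 334 transcripts brought to a total of 1000000, the Flag-FAK to IgG ratio was 1.27 (1.22 to 1.33). With equal totals over the non-ribosomal transcripts it was 1.15 (1.10 to 1.20), and with 7SK itself left out of those totals 1.51 (1.44 to 1.58). None of these ratios reached 2-fold. 7SK was therefore lower in Flag-FAK than in IgG in the deposited FPKM, and higher relative to the other listed transcripts. The deposited FPKM did not add a distortion of their own for 7SK. The FPKM that 1 read of 7SK was worth in Flag-FAK was 0.975 times that in IgG, within the range of 0.959 to 0.977 over 9 other transcripts with at least 20 reads in both.

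Against Input, 7SK was lower in both precipitates in FPKM. The IgG to Input ratio was 0.151 (0.147 to 0.156), or 6.61-fold lower in IgG. The Flag-FAK to Input ratio was 0.0841 (0.0809 to 0.0873), or 11.9-fold lower in Flag-FAK. Ratios below 0.5-fold were the rule in these comparisons, at 253 of 321 transcripts for IgG (78.8%) and 278 of 300 for Flag-FAK (92.7%), so the count of 7SK among them is no result about 7SK. After scaling all transcripts to 1000000 the ratios became 0.928 (0.901 to 0.956) for IgG and 1.18 (1.14 to 1.23) for Flag-FAK. With equal totals over the non-ribosomal transcripts other than 7SK they were 0.509 (0.494 to 0.524) and 0.768 (0.739 to 0.798). IgG lay below Input on each of these FPKM scales and Flag-FAK did not, whereas the share of all listed reads was higher in both precipitates than in Input. How much RNA each precipitate held is not given in the sources used here, so no percentage of Input recovered can be stated.

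**Figure D3:**
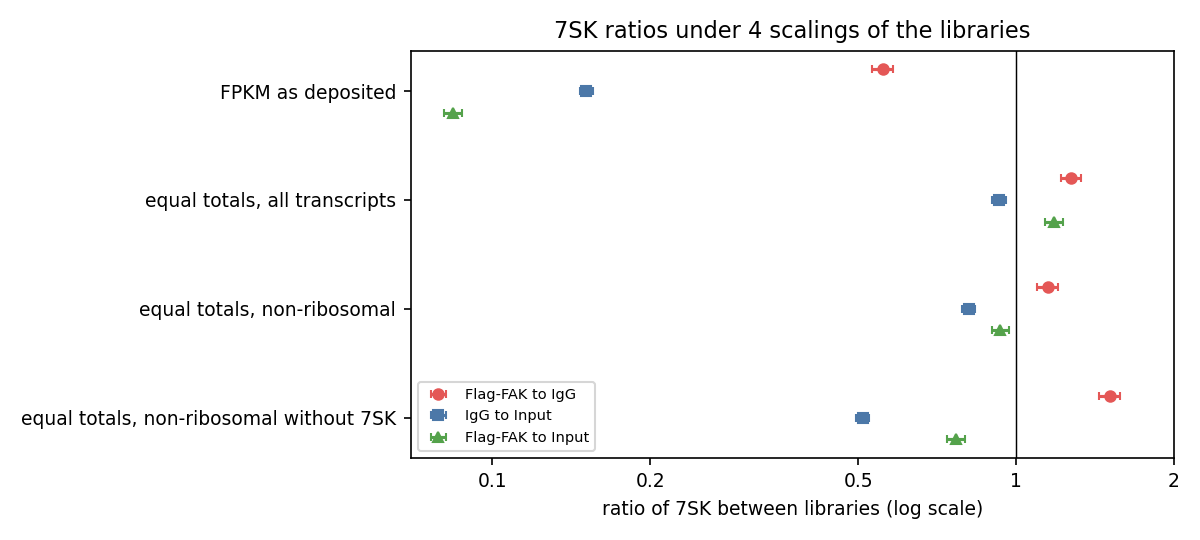
Ratio of 7SK between libraries on a log axis with exact 95% counting intervals, for 3 comparisons under 4 scalings of the libraries; the vertical line marks a ratio of 1. The Flag-FAK to IgG ratio was 0.556 in FPKM as deposited and 1.15 to 1.51 with equal totals.

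Odds need no library total, and set the reads of 7SK against the reads of other transcripts in the same library. There were 2.67 reads of 7SK for each read of another non-ribosomal transcript in Input, with 1.39 for IgG and 2.16 for Flag-FAK. The odds were 1.55 times as high in Flag-FAK as in IgG (conditional exact 95% interval 1.43 to 1.67), 0.521 times as high in IgG as in Input (0.497 to 0.546) and 0.807 times as high in Flag-FAK as in Input (0.754 to 0.864). The set of other transcripts decided how far this went. Against the 39 other transcripts with reads in all 3 libraries, the Flag-FAK to IgG odds ratio was 1.09, and its interval of 0.978 to 1.22 includes 1. Against those 39, the odds in IgG and in Flag-FAK were 0.564 (0.525 to 0.605) and 0.615 (0.560 to 0.675) times those in Input. This choice of transcripts is not independent of the comparison, because it leaves out those without a read in Flag-FAK. That library had the fewest reads on the listed transcripts, and only 64 other transcripts had any there against 147 in IgG. The value of 1.09 is therefore given as a description and does not show that the precipitates were alike.

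The other transcripts differed strongly between Input and the precipitates, which bears on every share given for 7SK. Of the 330 other non-ribosomal transcripts, 156 had reads in Input and none in either precipitate, and they held 48.1% of the other reads of Input. Another 37 had reads in a precipitate and none in Input, with 48.6% of the other reads of IgG and 46.4% of those of Flag-FAK. The transcript on the ribosomal RNA pseudogene of chromosome 20 alone had 1086 IgG reads and 345 Flag-FAK reads but 0 in Input. Without it, a setting chosen after its values were seen, 7SK made up 66.4% of the non-ribosomal reads of IgG (65.3 to 67.5%) and 74.3% of those of Flag-FAK (72.9 to 75.7%), with 72.8% in Input as before. The odds of 7SK were then 1.08 times as high in Flag-FAK as in Input (1.01 to 1.17), 0.740 times as high in IgG as in Input (0.703 to 0.779) and 1.46 times as high in Flag-FAK as in IgG (1.34 to 1.60). Leaving out the small nuclear RNA and SNORD3 loci in its place also put Flag-FAK above Input, at 1.15 (1.06 to 1.25). Whether Flag-FAK lay above or below Input thus depended on which other transcripts were counted. IgG lay below Input in each of these settings.

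**Figure D4:**
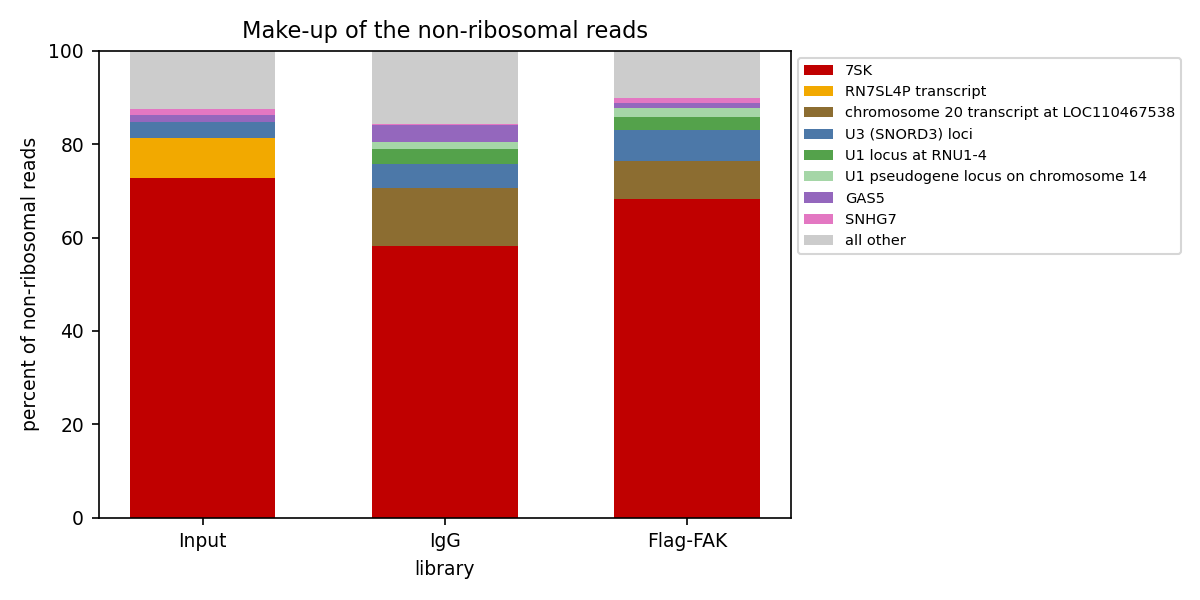
Percent of the non-ribosomal reads taken by 7SK, by 7 other loci and by all remaining transcripts in each library. 7SK was the largest part of each bar, at 72.8%, 58.2% and 68.3%; the RN7SL4P transcript appears in Input only, and the chromosome 20 and U1 transcripts in the precipitates only.

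Other small RNA loci were set beside 7SK, since they too produce short, structured and abundant RNAs. Of 19 small RNA families looked for by gene symbol, 4 were overlapped by a listed transcript: U1, U4, U6 (only through pseudogenes) and U3. RMRP, RPPH1, telomerase RNA, vault RNAs, Y RNAs and the RN7SL1 and RN7SL2 genes had none. Small nuclear RNA genes at 17q21, also overlapped, have symbols that name no family and were not assigned to any. U3, the small nucleolar RNA of SNORD3 that guides ribosomal RNA processing, was counted with 1822 Input reads, 462 IgG reads and 279 Flag-FAK reads over 3 transcripts of chromosome 17, some of which overlap on opposite strands. Summed over these, the Flag-FAK to IgG ratio of U3 in FPKM was 0.556 (0.477 to 0.646), beside 0.556 for 7SK. The sum joins transcripts that differed: the plus-strand one, with most of the reads, had 387 IgG and 191 Flag-FAK reads and a ratio of 0.481 (0.402 to 0.574), whereas the minus-strand ones had 56 and 69 reads with a ratio of 1.20 (0.831 to 1.74) and 19 reads in each with a ratio of 0.980 (0.491 to 1.96). Against the single transcripts, 7SK per read was 1.16 (0.963 to 1.39), 0.463 (0.318 to 0.670) and 0.570 (0.285 to 1.14) times as high in Flag-FAK as in IgG, so the equal ratio holds for the sum and not for each transcript. Over the sum there were, per U3 read, 11.1 of 7SK in IgG against 10.4 in Flag-FAK, and the ratio of these, 0.944 (0.806 to 1.11), includes 1. In Input there were 20.2 reads of 7SK per U3 read. Relative to U3, 7SK was therefore lower in both precipitates than in Input, at 0.547 times in IgG (0.491 to 0.609) and 0.516 times in Flag-FAK (0.452 to 0.591).

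Transcripts at genes of U1, the small nuclear RNA that recognises 5′ splice sites, had reads in both precipitates and none in Input. The U1, U3 and U4 transcripts also cross other genes, and which of their reads lay on the small RNA genes is not shown. The locus at RNU1-4 on chromosome 1, with 4 overlapping transcripts, took 267 IgG reads and 126 Flag-FAK reads, and its FPKM ratio was 0.461 (0.370 to 0.572). Per read of this locus there were 19.1 reads of 7SK in IgG, against 23.1 in Flag-FAK, and these differed by a factor of 1.21 (0.969 to 1.51). A transcript on the U1 pseudogenes RNU1-27P and RNU1-28P of chromosome 14 had 143 and 78 reads, its FPKM ratio was 0.530 (0.397 to 0.703), and the number of 7SK reads per read was 1.05 times as high in Flag-FAK as in IgG (0.785 to 1.40). For neither locus was a difference from 7SK detectable, and reads of such copies may be shared. Both U1 loci had 0 reads in Input, which allows up to 3. With 3 reads taken as present there, 7SK per read of the RNU1-4 locus was 642-fold higher in Input than in IgG. Such folds are limits for the count of 0 alone, and leave out the counting error of the other reads. A transcript at the U4 genes RNU4-1 and RNU4-2 took 59 Flag-FAK reads but 0 from either IgG or Input. With 3 reads taken as present in IgG, 7SK per read of it was 34.5-fold higher in IgG than in Flag-FAK. The RN7SL4P transcript ran the other way, with 4276 reads in Input and 0 in both precipitates. Taking 3 reads as present in each precipitate, 7SK per read of it was 198-fold higher in IgG and 113-fold higher in Flag-FAK than in Input. 7SK was thus abundant in all 3 libraries, whereas the U1 loci, the U4 transcript and the RN7SL4P transcript were each at 0 in at least 1. Reads in all 3 libraries were not particular to 7SK, since U3 and ribosomal DNA, among others, had them too.

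Besides U4, several further loci, small nuclear RNA genes among them, differed from 7SK between the precipitates beyond counting error. For ribosomal DNA the Flag-FAK to IgG ratio in FPKM was 0.430 (0.426 to 0.435), and 7SK per ribosomal DNA read was 1.29 times as high in Flag-FAK as in IgG (1.23 to 1.36). For the chromosome 20 pseudogene transcript the ratio was 0.310 (0.274 to 0.350), and 7SK per read was 1.80 times as high (1.58 to 2.05). GAS5, a growth arrest RNA that hosts small nucleolar RNAs, took 314 IgG reads and 46 Flag-FAK reads over 4 transcripts, and 7SK per GAS5 read was 3.89 times as high in Flag-FAK (2.84 to 5.44). SNHG7, another host of small nucleolar RNAs, had 25 and 44 reads, and 7SK per SNHG7 read was 0.324 times as high (0.190 to 0.543). A locus of small nuclear RNA genes at 17q21 also differed. It was counted with 131 Input reads, 17 IgG reads and 2 Flag-FAK reads, and 7SK per read was 4.85 times as high in Flag-FAK as in IgG, with a wide interval of 1.15 to 43.3.

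**Figure D5:**
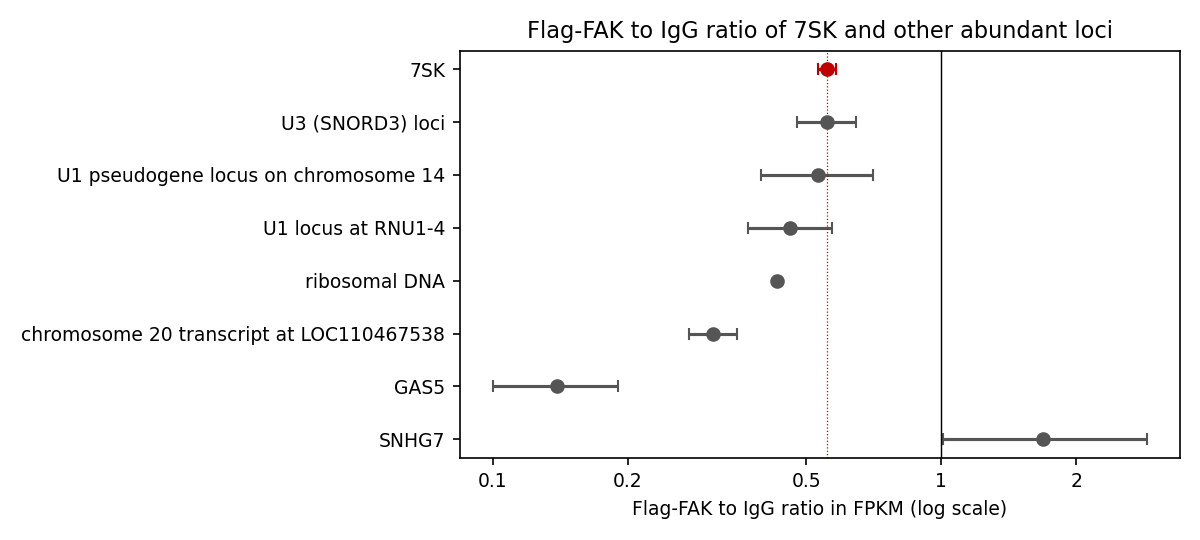
Flag-FAK to IgG ratio in FPKM on a log axis with exact 95% counting intervals, for 7SK and 7 other loci with reads in both precipitates; the dotted line is at the ratio of 7SK (0.556) and the solid line at 1. The intervals of U3 and of both U1 loci include 0.556, and those of ribosomal DNA, the chromosome 20 transcript, GAS5 and SNHG7 do not. The small nuclear RNA locus at 17q21, with 17 IgG and 2 Flag-FAK reads, is not drawn. Its ratio was 0.102, and its interval of 0.0115 to 0.431 does not include 0.556.

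The pattern most like that of 7SK was sought among non-ribosomal transcripts with at least 20 reads in each library, by the distance between pairs of log2 FPKM ratios (Flag-FAK to IgG and IgG to Input). Only 4 other transcripts qualified, so the ranking has little to choose from. Nearest, at a distance of 0.89, was the plus-strand U3 transcript NONHSAT146422.2, with log2 ratios of -1.06 and -1.86 against -0.85 and -2.73 for 7SK. A minus-strand transcript of the same U3 locus followed at 1.51, with log2 ratios of 0.26 and -1.70. SNHG7:1 was next at 2.15, with 0.76 and -4.16. The farthest, NONHSAT007663.2 at GAS5, lay at 2.49. The 2 nearest differed from 7SK in opposite directions in Flag-FAK against IgG.

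The proteins of the 7SK particle and of P-TEFb could not be set beside their RNA. None of the 15 genes listed for them, among them LARP7, MEPCE, HEXIM1, HEXIM2, CDK9, CCNT1 and CCNT2, was overlapped by a listed transcript. The authors also attached predicted target genes to each lncRNA transcript. The 7SK transcript had 22 such lines against a median of 10 over the 334 transcripts, of which 2 were neighbours in cis (GSTA3 and ICK) and 20 were predicted in trans. TRIM10 accounted for 8 of the 22 lines under separate gene identifiers. None of the 15 particle and P-TEFb genes was among the predicted targets.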

How the data were processed

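RNA immunoprecipitation libraries were analysed from the files of the series, 1 library each of Input, IgG and Flag-FAK, grouped by their labels. For each library the authors deposited FPKM (fragments per kilobase of transcript, scaled to an unstated sequencing total), and read counts in whole numbers, of 334 transcripts, repeated over 7007 lines, 1 for each predicted target gene. Repeated lines were identical and used once. The deposited coding potential scores, and the coding probability as a fraction, were only described. StringTie and GRCh38 are named in the submitters' processing notes. Aligner, counter, strand setting and the selection of RNA before library preparation are not given in the sources used here.

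The ribosomal rows were the 3 transcripts of the ribosomal DNA on chromosome 21 (8209614 to 8446613). Loci were named by overlap with RefSeq genes of GRCh38.p14. The interval of a FPKM ratio is the exact 95% Clopper-Pearson interval of the reads, put on the FPKM scale through what 1 read of the same transcript, or sum of transcripts, was worth in each library. Odds ratios carry conditional exact intervals. Counts of 0 were given an upper limit of 3 reads. Calls used 2-fold after adding 0.1 FPKM, with at least 0.5 FPKM in either library. Besides 7SK, the named genes are the 3 nearest patterns (4 qualified), the next most abundant transcript of each library, and listed small RNA loci; GAS5, SNHG7 and ribosomal DNA were added for comparison. Members and lists were chosen with earlier results of these data known. Intervals were tested on simulated counts drawn independently, as the intervals assume, so the test does not cover PCR copies. Precision is set by the reads, 2913 for 7SK in Flag-FAK. Alternatives were other scalings, pseudocounts, denominators and minimum values. Tools were scipy 1.17.1, numpy 2.4.6, pandas 2.3.3 and matplotlib 3.10.9 under Python 3.11.15.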

Additional observations from a re-analysis of the deposited data

How the results depend on the processing

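No paired analysis was possible because there is only 1 library of each kind, and for the same reason no replicate could be left out. Pseudocounts of 0.1 and 1 moved no ratio of 7SK beyond its counting interval. Scaling all transcripts to 1000000 turned the Flag-FAK to IgG ratio to 1.27 and the Flag-FAK to Input ratio to 1.18, and gave 0.928 for IgG to Input. With equal non-ribosomal totals the 3 ratios were 1.15, 0.932 and 0.812, and without 7SK in those totals 1.51, 0.768 and 0.509. The Flag-FAK to IgG ratio thus turned in all 3 scalings. Unscaled reads gave 0.139 for IgG to Input and 0.0791 for Flag-FAK to Input, and stayed within the interval for Flag-FAK to IgG.

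The share of 7SK in Input, IgG and Flag-FAK was 1.79%, 4.66% and 5.97% of all listed reads. It was 75.8%, 73.6% and 84.1% among rows with a database name, and 76.0%, 61.7% and 70.8% in FPKM. A wider ribosomal window (8000000 to 8500000) changed nothing. Without the chromosome 20 pseudogene transcript, chosen after seeing the data, it was 66.4% in IgG and 74.3% in Flag-FAK. The odds ratio then turned to 1.08 for Flag-FAK to Input and was 0.740 for IgG to Input. Leaving out small nuclear RNA and SNORD3 loci gave 1.95 for Flag-FAK to IgG and 0.587 for IgG to Input, and turned Flag-FAK to Input to 1.15 (1.06 to 1.25). Against transcripts with reads in all 3 libraries the odds ratios were 1.09, 0.564 and 0.615, a set chosen by the reads compared. Without the most read other transcript of each library, Flag-FAK to Input was 0.747. The cause of these changes was not tested beyond which transcripts were left out.

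Summed over loci, 7SK ranked 2 in Input in place of 3, because the ribosomal transcripts there share a locus. Its rank by Flag-FAK to IgG ratio was 30 of 135, 206 of 334 without a minimum value, since transcripts at 0 in both precipitates then have a ratio of 1, and 11 of 26 with at least 5 reads in both. After the data were seen, the background counts were rescaled too. For IgG to Input, transcripts above 2-fold rose from 43 to 84 of 321 (13.4% to 26.2%) when all were scaled to 1000000. For Flag-FAK to Input they rose from 16 to 36 of 300 (5.33% to 12%), or to 31 (10.3%) with non-ribosomal totals without 7SK.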
